A study of Homo sapiens with 16 samples.

Results

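Expression of 9 transcription factor genes of the kidney progenitor (SIX2, SIX4, EYA1, WT1, PAX2, PAX8, SALL1, OSR1 and MEOX1) was examined in the rhabdoid tumor line G401. They were found by symbol and are 9 of the 57820 genes in the tables. G401 is an established line from a human kidney rhabdoid tumor with mutant SMARCB1, a subunit of the SWI/SNF chromatin remodeling complexes. Cells carried either a knockout of BRD9 (BRD9 KO), a bromodomain subunit of one SWI/SNF subcomplex, or the LacZ control, and both were collected on days 1, 2, 3 and 5, with 2 libraries in each of the 8 groups. All groups share the line and its SMARCB1 mutation, and the event from which the days were counted was not given in the sources used here. The time course addressed which transcriptional changes after BRD9 loss are primary and which are secondary.

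In the embryo the nephrons arise from a cap of mesenchyme around the branching ureteric bud. OSR1 marks the intermediate mesoderm from which that mesenchyme comes, PAX2 and PAX8 are paired-box factors needed to form the kidney, and WT1 is a zinc finger factor first found as a Wilms tumor gene. EYA1 is a coactivator that works with homeobox factors such as SIX2 and SIX4, SIX2 keeps the progenitors from differentiating, and SALL1 is a zinc finger factor of the same cells. MEOX1 is a homeobox factor best known from the somites and, in the mouse, also found in the cap mesenchyme.

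The libraries held 9185866 to 16560749 expected counts in BRD9 KO and 11252871 to 15430142 in LacZ, an expected count being the estimated number of reads from a gene. The labels were checked first. BRD9 had 16.6 to 25.9 CPM (counts scaled to a common library total) in the 8 BRD9 KO libraries and 45.8 to 64.5 CPM in the 8 LacZ libraries, so that BRD9 KO cells kept 35.02% to 40.4% of the LacZ level on the 4 days. SMARCB1 had no count in 15 of 16 libraries and 2 counts in LacZ day 1 replicate 2, while VIM, a mesenchymal filament gene typical of rhabdoid cells, stood at 1366 to 1922 TPM (transcript abundance scaled by gene length and library total). These were bulk libraries, in which fewer cells with a transcript and less transcript per cell cannot be told apart.

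A gene was termed silent when it was under 0.1 TPM in every library, and expressed when both libraries of at least 1 group reached 1 TPM. By these limits 3 of the 9 factors were expressed, namely MEOX1, SIX4 and PAX2, and 6 were silent, namely SIX2, EYA1, WT1, PAX8, SALL1 and OSR1. Among the 19404 genes annotated as protein-coding, 60.7% were expressed and 21.3% were silent. The plot of the factors and their paralogs shows the gap between the groups, since no factor had a mean between those of OSR1 and PAX2.

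**Figure D1:**
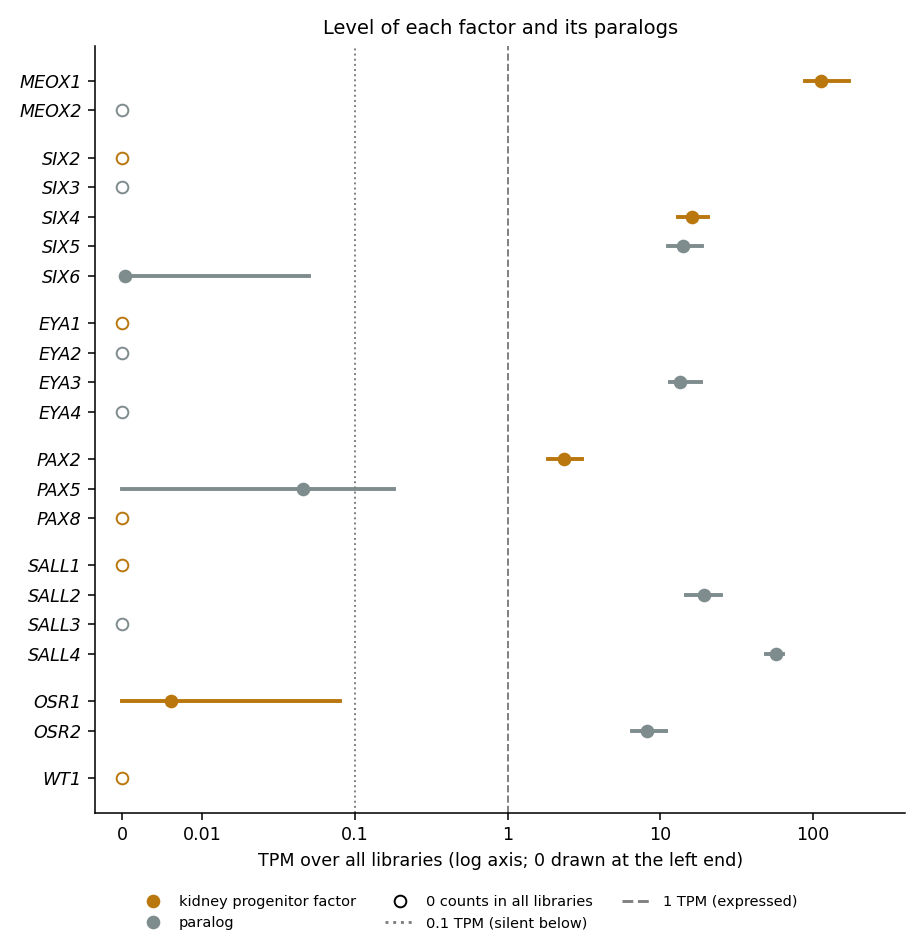
Level of each kidney progenitor factor (orange) and of paralogs (grey) over the 16 libraries, in TPM on a log axis with 0 drawn at the left end. Of the PAX genes only PAX2, PAX5 and PAX8 are drawn. PAX6 and PAX9, which are left out, averaged 0.768 and 0.236 TPM. Points are means, bars run from the lowest to the highest library, open circles have no count in any library, and the lines mark 0.1 and 1 TPM. MEOX1, SIX4 and PAX2 lie right of 1 TPM in every library, and SIX2, EYA1, WT1, PAX8 and SALL1 have no count at all.

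SIX2, EYA1, WT1, PAX8 and SALL1 each had 0 counts in all 8 BRD9 KO and all 8 LacZ libraries. A limit of 3 counts was used, about the upper 95% limit for a count of 0 under counting error. For SIX2, whose annotated span is chr2:45232321-45236591 on GRCh37, 3 counts correspond to 0.143 to 0.253 TPM in a single library. Over the 16 libraries together they correspond to 0.0113 TPM. The same limit over all libraries was 0.00882 TPM for EYA1 (chr8:72109668-72504260), 0.0126 TPM for WT1 (chr11:32409321-32457110), 0.0133 TPM for PAX8 (chr2:113973574-114036498) and 0.00936 TPM for SALL1 (chr16:51169893-51186245). Levels under these limits were not detectable at this depth, and the limits cover counting error only.

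OSR1 (chr2:19551246-19558384) was the only silent factor with any read. It had 1 count in each BRD9 KO day 5 library, listed as 0.08 and 0.02 TPM, and 0 counts in the other 6 BRD9 KO libraries and in all 8 LacZ libraries. Both values are under the limit of 3 counts used for a count of 0, and no difference can be read from them.

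The transcripts that overlap these genes were as low. The library kit as described does not mark strand, so reads of a gene and its antisense partner cannot be told apart. WT1-AS, which lies antisense to WT1, had 1 count in 1 LacZ library, and the transcript antisense to PAX8 (AC016683.6 in the tables) had 1 count in 1 library. The annotated transcripts inside EYA1 and SALL1 that the tables hold had 0 counts, as did the pseudogene SALL1P1. The count of 6 silent factors was the same with a limit of 0.5 or 1 TPM, with the mean over libraries in place of every library, and with fewer than 10 counts in every library.

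MEOX1 (chr17:41717757-41739290) was the most abundant of the 9 factors. Its level was 102.9 to 170.6 TPM in BRD9 KO libraries and 87.9 to 124 TPM in LacZ libraries, with a mean of 113 TPM over all 16. Of the 11772 expressed protein-coding genes, 1351 had a higher mean. SIX4 (chr14:61176257-61191069) stood at 13.2 to 20.6 TPM in BRD9 KO and 13.1 to 17.3 TPM in LacZ libraries, with a mean of 16.01 TPM, and 7262 expressed protein-coding genes had a higher mean.

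PAX2 (chr10:102495153-102589701) was close to the limit for an expressed gene. It had 34 to 69 counts per library, which gave 1.83 to 3.05 TPM in BRD9 KO and 1.93 to 2.70 TPM in LacZ libraries. The ranges of MEOX1, SIX4 and PAX2 over the 16 libraries did not overlap, so the order of the 3 levels was the same in each library.

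SIX4 and SIX2 show the contrast within one family, since SIX4 was expressed and SIX2 had no count. The RefSeq promoter windows (GRCh38.p14, minus strand for both), which reach from 250 bases before the start site to 50 bases after it, were matched for 5 of the 9 factors, namely SIX2, SIX4, WT1, PAX2 and PAX8. The 250 bases before the start are printed 5′ to 3′, with each CG dinucleotide in capitals, for SIX4 (chr14:60724352-60724601) and SIX2 (chr2:45009453-45009702).
SIX4: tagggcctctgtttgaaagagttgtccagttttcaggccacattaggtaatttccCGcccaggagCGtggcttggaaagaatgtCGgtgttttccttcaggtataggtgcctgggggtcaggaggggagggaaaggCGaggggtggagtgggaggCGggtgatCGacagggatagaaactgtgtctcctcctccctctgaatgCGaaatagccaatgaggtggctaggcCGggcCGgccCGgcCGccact
SIX2: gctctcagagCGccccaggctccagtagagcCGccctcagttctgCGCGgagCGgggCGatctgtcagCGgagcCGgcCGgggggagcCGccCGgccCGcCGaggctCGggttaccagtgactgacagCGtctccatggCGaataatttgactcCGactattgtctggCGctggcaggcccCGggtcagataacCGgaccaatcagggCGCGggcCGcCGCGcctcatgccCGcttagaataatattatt

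The printed stretch held 11 CG in SIX4 and 26 in SIX2. Over the whole window of 300 bases SIX4 had 14 CG and SIX2 had 29, against a median of 14 over all 35116 windows of this length, of which 75.8% had fewer CG than SIX2. On either strand both windows held a CCAAT box (CCAAT, found in 34.6% of all windows) and a GC box (GGGCGG, in 45.0%). Neither held a TATA box (TATAAA, in 11.5%), the MEF3 motif of SIX4 and its paralogs (TCAGGTTTC, in 0.362%) or an AP-1 site (TGANTCA, in 7.71%). The matches describe the letters only and say nothing of binding.

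Paralogs of the silent factors were examined next, since members of these families overlap in function. SIX5, a homeobox factor close to SIX4, was expressed at 14.1 TPM, whereas SIX3 had 0 counts and SIX6 had 1 count in all libraries. SIX2 and SIX3, neighbors on chromosome 2 with 59110 bases between them, were both without a count. In all, 2 of the 5 genes from SIX2 to SIX6 were expressed.

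Of the 4 EYA genes only EYA3 was expressed, at 13.5 TPM, and EYA1, EYA2 and EYA4 had no count. SALL1 and SALL3 had no count, while SALL4, a stem cell factor, stood at 57.4 TPM and SALL2 at 19.2 TPM. OSR2 was expressed at 8.13 TPM beside the silent OSR1, and MEOX2 had no count beside MEOX1. PAX2 was the only expressed gene of the 9 PAX genes. The next highest, PAX6, averaged 0.768 TPM, and PAX5, which with PAX2 and PAX8 forms one subfamily, averaged 0.0456 TPM.

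The effect of BRD9 loss was tested with edgeR's quasi-likelihood test on 15027 genes, with Benjamini-Hochberg adjustment over all of them and a call at an adjusted p under 0.05. Of the 9 factors, MEOX1, SIX4 and PAX2 passed the filter on low counts, and the 6 silent factors did not. Over days 3 and 5, MEOX1 and SIX4 were higher in BRD9 KO cells, at 135% and 127% of the LacZ level, and PAX2 did not pass the test. Across all tested genes 10.6% were called higher in this comparison, 10.9% lower and 21.5% in either direction. No factor was called lower in BRD9 KO cells on any day.

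**Figure D2:**
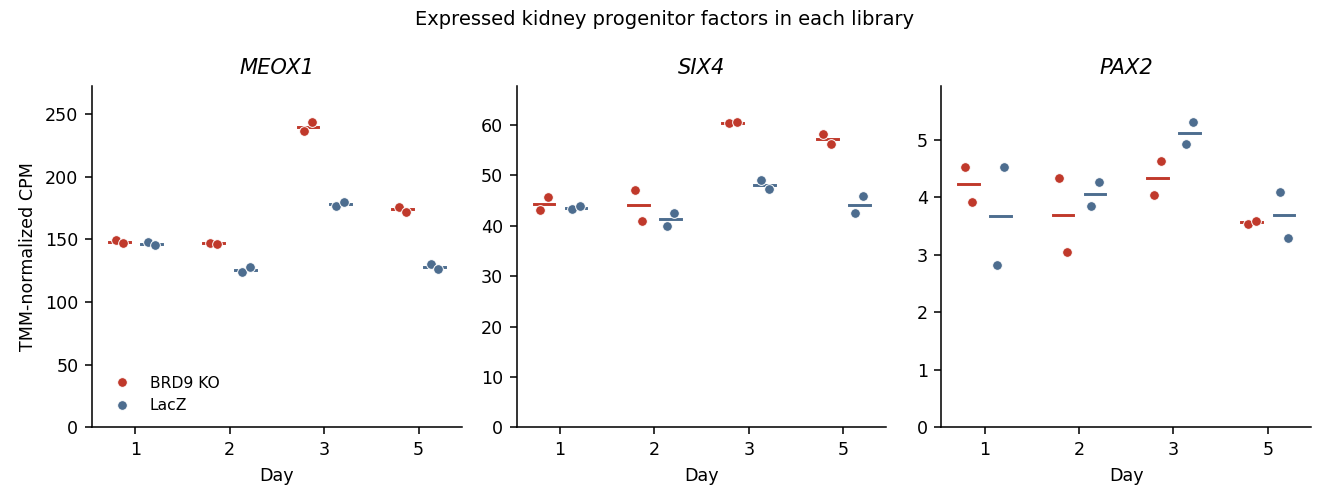
TMM-normalized CPM of MEOX1, SIX4 and PAX2 (vertical axes, each from 0) by day, with 1 point per library and a line at the mean of 2 libraries, BRD9 KO in red and LacZ in blue. MEOX1 was higher in both BRD9 KO libraries on days 2, 3 and 5 and SIX4 on days 3 and 5, while the PAX2 libraries of the 2 groups lie within 2.83 to 5.31 CPM.

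MEOX1 overlapped between the groups on day 1, with 149 and 147 CPM in BRD9 KO and 148 and 146 CPM in LacZ libraries. The log2 fold change of BRD9 KO over LacZ was 0.01 (SE 0.03, adjusted p = 0.948, edgeR), in a comparison with 0.539% of all genes called. On that day none of the 3 tested factors was called by edgeR, and none had an unadjusted p under 0.05. DESeq2 did not call MEOX1 and gave no adjusted p for SIX4 and PAX2. On day 2 the BRD9 KO libraries had 147 and 146 CPM and the LacZ libraries 124 and 128 CPM. The groups no longer overlapped, and MEOX1 was called at a log2 fold change of 0.22 (SE 0.03, adjusted p = 0.000546), with 2.7% of all genes called. With limma on log2(TPM + 1) the value was 0.17 and was not called (adjusted p = 0.122). It was the only one of the 3 factors called on day 2.

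On day 3 MEOX1 reached 237 and 243 CPM in BRD9 KO, against 177 and 180 CPM in LacZ libraries. This was the highest level of MEOX1 in each of the 2 kinds of cell, and BRD9 KO cells were at 135% of LacZ cells (log2 fold change 0.43, SE 0.03, adjusted p = 1.86e-08). On day 5 MEOX1 had 176 and 172 CPM in BRD9 KO and 130.0 and 126 CPM in LacZ libraries, 136% of LacZ (log2 fold change 0.44, SE 0.03, adjusted p = 1.37e-08). The libraries of a group differed by at most 0.05 on the log2 scale, less than the difference between groups on days 2, 3 and 5. Across all genes 10.4% were called on day 3 and 15% on day 5.

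SIX4 showed a difference on the later days. On day 1 it had 43.1 and 45.7 CPM in BRD9 KO and 43.3 and 43.9 CPM in LacZ libraries, and on day 2 it had 47.2 and 41.0 CPM in BRD9 KO and 40.0 and 42.5 CPM in LacZ libraries. The groups overlapped on both days, with log2 fold changes of 0.03 (adjusted p = 0.922) and 0.11 (adjusted p = 0.495) by edgeR. On day 3 the BRD9 KO libraries had 60.4 and 60.5 CPM and the LacZ libraries 49.0 and 47.4 CPM. Here SIX4 was at 125% of the LacZ level (log2 fold change 0.33, SE 0.06, adjusted p = 0.000769).

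On day 5 SIX4 had 58.2 and 56.3 CPM in BRD9 KO and 42.6 and 45.9 CPM in LacZ libraries, 129% of LacZ (log2 fold change 0.37, SE 0.06, adjusted p = 0.000175). The largest difference between libraries of one group was 0.20 on the log2 scale, in BRD9 KO on day 2. With limma on log2(TPM + 1), which changes both the unit and the test, SIX4 was not called on either day. The log2 fold change was 0.19 on day 3 (adjusted p = 0.393) and 0.31 on day 5 (adjusted p = 0.0949). TPM is also scaled by the effective length that RSEM estimated for each library. For SIX4 on day 3 it was 4954 and 5354 bases in BRD9 KO and 4695 and 4608 bases in LacZ libraries. On day 5 it was 5277 and 5365 bases in BRD9 KO and 5133 and 5044 bases in LacZ libraries. The cause of the lost calls was not tested. Over both days together SIX4 was called by edgeR and by limma. The call by limma on log2(TPM + 1) was near the limit (log2 fold change 0.25, adjusted p = 0.0419).

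PAX2 was not called on any day. Its libraries had 4.53 and 3.92 CPM in BRD9 KO against 2.83 and 4.53 CPM in LacZ on day 1, and 4.34 and 3.05 CPM in BRD9 KO against 3.85 and 4.26 CPM in LacZ on day 2. On day 3 they had 4.04 and 4.63 CPM in BRD9 KO against 4.93 and 5.31 CPM in LacZ, the one day on which the groups did not overlap in CPM. On day 5 they had 3.54 and 3.59 CPM in BRD9 KO against 4.09 and 3.30 CPM in LacZ. In TPM the groups were apart on days 2, 3 and 5, but not always in the same direction. BRD9 KO was higher on day 2, at 3.05 and 2.78 against 1.93 and 2.67 TPM in LacZ. It was lower on day 3, at 2.39 and 2.38 against 2.53 and 2.70 TPM. On day 5 it was also lower, at 1.94 and 1.83 against 2.27 and 2.35 TPM. The effective length of PAX2 ran from 1845 to 3685 bases over the libraries.

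Libraries of one group differed in PAX2 by up to 0.65 on the log2 scale, at 34 to 69 counts each. Over days 3 and 5 the log2 fold change of PAX2 was -0.15 with a 95% interval of -0.50 to 0.19 (adjusted p = 0.578, edgeR). The interval holds a fall of the size that MEOX1 rose by, so neither a change nor its absence was shown for PAX2.

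**Figure D3:**
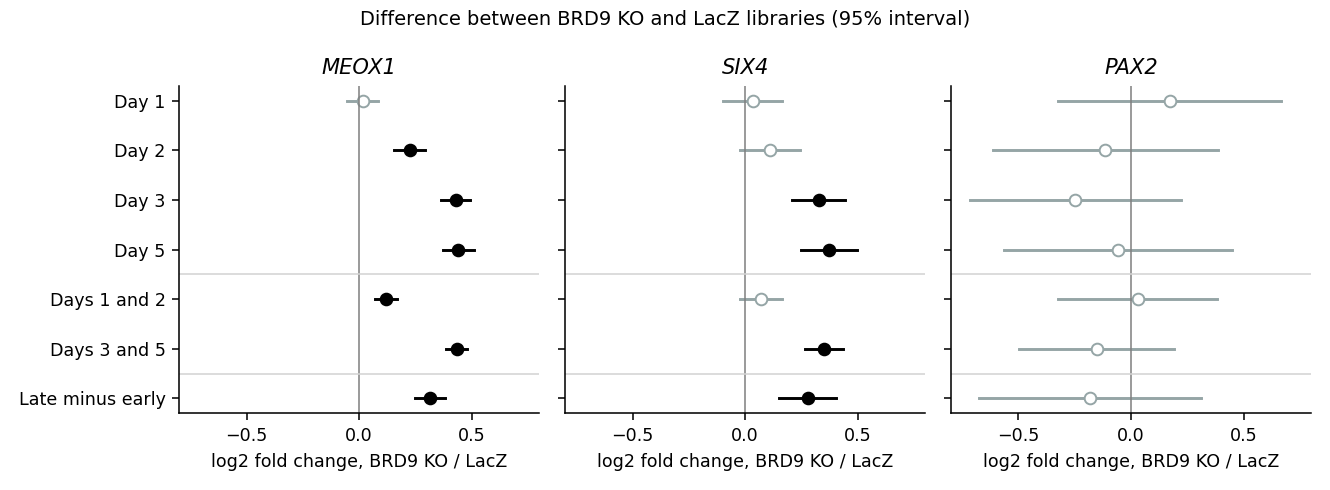
Log2 fold change of BRD9 KO over LacZ (horizontal axes) with its 95% interval for MEOX1, SIX4 and PAX2 on each day, over days 1 and 2, over days 3 and 5, and for the later minus the earlier pair. Filled points were called at an adjusted p under 0.05 by edgeR. MEOX1 is called from day 2, SIX4 from day 3, and each PAX2 interval spans 0.

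The change of the effect with time was tested directly. Over days 1 and 2 the log2 fold change of MEOX1 was 0.12 (SE 0.02, adjusted p = 0.00588, edgeR, 3.31% of genes called), and over days 3 and 5 it was 0.43 (SE 0.02, adjusted p = 6.03e-11). The later minus the earlier effect was 0.31 (SE 0.03, adjusted p = 3.06e-06). For SIX4 the log2 fold changes were 0.07 (adjusted p = 0.504) and 0.35 (SE 0.04, adjusted p = 3.85e-06), and the later minus the earlier effect was 0.28 (SE 0.06, adjusted p = 0.00698). For PAX2 this difference was -0.18 with a 95% interval of -0.67 to 0.31. Across all genes 7.43% had a called difference between the periods, and 3.41% in the direction of MEOX1 and SIX4. With limma on log2(TPM + 1) the MEOX1 value over days 1 and 2 was 0.09 (adjusted p = 0.246) and the later minus the earlier effect of SIX4 was 0.23 (adjusted p = 0.332), and neither was called.

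Levels were also compared between days within each kind of cell. From day 1 through days 2, 3 and 5, MEOX1 averaged 148, 147, 240.0 and 174 CPM in BRD9 KO cells, and 147, 126, 178 and 128 CPM in LacZ cells. In BRD9 KO cells day 5 was above day 1 (log2 fold change 0.23, SE 0.03, adjusted p = 1.46e-05, edgeR, 35.1% of genes called), and in LacZ cells day 5 was below day 1 (log2 fold change -0.19, SE 0.03, adjusted p = 0.000252, 25.6% of genes called). The test of day 3 against day 1 was added after the values were seen. It gave 0.70 in BRD9 KO (adjusted p = 4.17e-12, 37.8% of genes called) and 0.28 in LacZ cells (adjusted p = 1.46e-06, 35.2% of genes called). These tests share libraries with those between the groups and are not independent of them.

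SIX4 averaged 44.4, 44.1, 60.5 and 57.3 CPM over the same days in BRD9 KO cells and 43.6, 41.3, 48.2 and 44.2 CPM in LacZ cells. Day 5 was above day 1 in BRD9 KO cells (log2 fold change 0.36, SE 0.06, adjusted p = 0.000114, edgeR). In LacZ cells the difference was 0.02 with a 95% interval of -0.11 to 0.15 (adjusted p = 0.888). Between day 3 and day 1 SIX4 differed by 0.44 in BRD9 KO (adjusted p = 8.43e-06) and by 0.14 in LacZ cells (adjusted p = 0.0736). PAX2 averaged 4.23, 3.69, 4.34 and 3.57 CPM in BRD9 KO cells and 3.68, 4.06, 5.12 and 3.69 CPM in LacZ cells, with no call between days in either. In LacZ cells its day 3 minus day 1 value was 0.46 (adjusted p = 0.127), and without LacZ day 1 replicate 2 it was 0.85 and passed (adjusted p = 0.0249).

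As a description, log2 CPM of MEOX1 and SIX4 correlated at r = 0.869 over the 16 libraries, that of MEOX1 and PAX2 at 0.309 and that of SIX4 and PAX2 at 0.15. The libraries share guides and days, so they are not independent points. Among 10105 genes that averaged 3 or more on the log2 CPM scale, the patterns nearest to MEOX1 were those of LZTR1 (r = 0.974), JAK1 (r = 0.968) and DDX58 (r = 0.967). The nearest to SIX4 were ATP11A (r = 0.952), RPS6KA2 (r = 0.947) and SLC4A7 (r = 0.947). The nearest to PAX2 among 10106 genes were ITGAE (r = 0.778), NDUFA9 (r = 0.771) and IQCB1 (r = 0.76).

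The paralogs were tested in the same comparison as MEOX1 and SIX4. Of the 7 paralogs tested, 0 were called higher and 1 lower over days 3 and 5, where 21.5% of all genes were called. Without adjustment 4 of the 7 had p under 0.05 by edgeR, and the share of all tested genes at this limit was not computed. The one called was SALL2, at 32.3 CPM in BRD9 KO and 37.2 CPM in LacZ cells (log2 fold change -0.20, SE 0.04, adjusted p = 0.00136, edgeR). SALL4 had -0.08 (adjusted p = 0.0733), SIX5 -0.03 (adjusted p = 0.815) and EYA3 -0.11 (adjusted p = 0.132). The median over the 7 was -0.09, beside -0.000302 over all tested genes.

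Other factors of nephron formation were mixed. Of 37 listed, 18 were expressed and 13 silent, 19 were tested, 2 were called higher and 7 lower over days 3 and 5, beside 10.6% and 10.9% of all tested genes, and the median log2 fold change was -0.06. MEIS2, a homeobox cofactor, was the called factor with the smallest p and stood at 74.0 CPM in BRD9 KO and 114 CPM in LacZ cells (log2 fold change -0.64, SE 0.03, adjusted p = 8.24e-12, edgeR). The HOX genes HOXC10 (-0.34, adjusted p = 0.00044) and HOXC11 (-0.48, adjusted p = 0.00394) and the nuclear receptor gene NR2F2 (-0.20, adjusted p = 0.000417) were also lower. ID2 (0.23, adjusted p = 0.0014) and NR2F1 (0.12, adjusted p = 0.00697) were higher. CITED1, which like SIX2 marks the cap mesenchyme, averaged 1.88 TPM and was not called (adjusted p = 0.737).

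Of 37 listed signals and receptors of nephron formation, 13 were tested, 6 were called higher and 2 lower, beside 10.6% and 10.9% of all tested genes, with a median log2 fold change of 0.12. Of the 38 entries for these genes (JAG1 has 2), 34.2% were expressed and 39.5% silent, beside 60.7% and 21.3% of protein-coding genes. BMP4 and FGFR1 averaged 431 and 306 TPM. GDNF, the mesenchymal ligand that draws out the ureteric bud, and ITGA8, a progenitor integrin, had no count. WNT11 had 21.5 CPM in BRD9 KO and 15.6 CPM in LacZ cells (log2 fold change 0.46, SE 0.07, adjusted p = 9.48e-05, edgeR). WNT4, the signal by which progenitors become epithelium and a gene named here after its value was seen, had 5.59 CPM in BRD9 KO and 3.22 CPM in LacZ cells (0.79, SE 0.17, adjusted p = 0.00197). BMP4 (0.12), FGFR1 (0.10) and FGF2 (0.11) were higher by less, and FGFR2 (-0.22) and CRIM1 (-0.11) were lower. NOTCH2, SPRY1 and GDF11 were not called, at 0.03, -0.08 and 0.14.

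**Figure D4:**
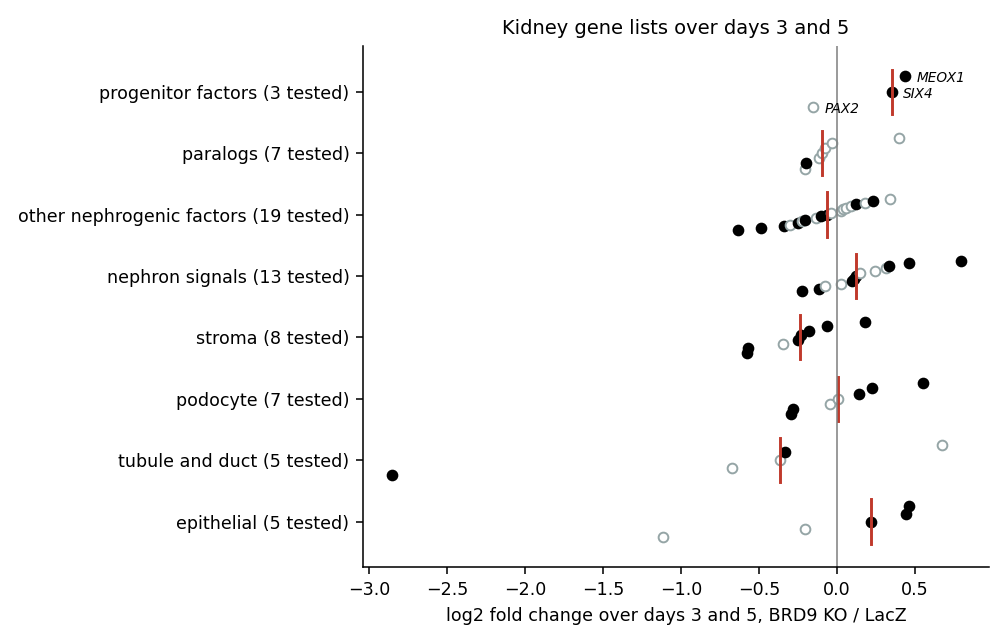
Log2 fold change of BRD9 KO over LacZ over days 3 and 5 (horizontal axis) for each tested gene of 8 kidney gene lists (rows). Filled points were called at an adjusted p under 0.05 by edgeR and red bars are list medians. MEOX1 and SIX4 lie at 0.43 and 0.35, beside list medians of -0.09 for the paralogs, -0.06 for other nephrogenic factors and 0.12 for the signals.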

How the data were processed

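RNA was sequenced from 16 G401 libraries, 2 for each of 8 groups. A NEBNext Ultra kit turned total RNA into libraries, and the authors aligned reads to hg19 with STAR and quantified genes with RSEM; versions were not given in the sources used here. The deposited unit tested is RSEM's expected count per gene, an estimate that need not be whole (35.7% of values above 0 were not), rounded here. The deposited TPM, scaled by the authors' RSEM runs by length and library total, gave the levels and an alternative test. The deposited effective length in bases was read as RSEM estimated it, and it differs between libraries.

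Genes were filtered with edgeR's filterByExpr (minimum count 10, minimum total 15), which left 15027, and scaled by TMM. The quasi-likelihood fit and test of edgeR 4.0.16 (glmQLFit, glmQLFTest; R 4.3.3) used all 16 libraries and 8 group means. The common biological coefficient of variation was 0.023 with 8 residual degrees of freedom. Early means days 1 and 2, and late days 3 and 5. Alternatives used DESeq2 1.42.0, limma 3.58.1 on log2(TPM + 1) and log2(TPM + 0.1), other filters, a replicate block and each library left out. The scripts were tested on simulated data.

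The study's methods describe the 2 libraries of a group as biological replicates and do not say whether they were separate cultures, so p-values measure the spread between these libraries. The factors and gene lists were chosen with earlier results of these data known. The genes named beside the factors were BRD9 and SMARCB1, overlapping genes, up to 4 called genes per direction with the smallest late p and up to 3 others by mean TPM from each list, and the 3 genes most correlated with each expressed factor. Other genes named were chosen after their values were seen, and a few genes of the lists are not reported here. GENCODE coordinates are on GRCh37, the same build as hg19, and promoters are RefSeq's on GRCh38.p14.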

Additional observations from a re-analysis of the deposited data

Results flagged for a closer look

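For MEOX1 and SIX4 the difference between BRD9 KO and LacZ cells itself differed between the later and the earlier days. Days 3 and 5 minus days 1 and 2 gave 0.315 on the log2 scale for MEOX1 (adjusted p = 3.06e-06, edgeR) and 0.279 for SIX4 (adjusted p = 0.00698, edgeR).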

How the results depend on the processing

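Over days 3 and 5 the 2 calls among the factors, MEOX1 and SIX4, were kept under all 17 alternatives. For SIX4 those by limma on log2(TPM + 1) and log2(TPM + 0.1) were near the limit (adjusted p = 0.0419 and 0.0409). With limma on log2(TPM + 1) or log2(TPM + 0.1), 0 of the 3 tested factors were called on day 2 and over days 1 and 2, and 1 on day 3, on day 5 and for late minus early. There MEOX1 lost its calls on day 2 (adjusted p = 0.122 and 0.124) and over days 1 and 2 (0.246 and 0.244), and SIX4 those on day 3 (0.393 and 0.392), on day 5 (0.0949 and 0.0913) and late minus early (0.332 and 0.329). The cause was not tested. For LacZ day 3 minus day 1, added after seeing the data, 2 factors were called with the libraries of that contrast only, and 1 to 2 with single libraries left out. Replicate numbers were not taken to pair the samples. The correlation of residuals between same-numbered BRD9 KO and LacZ libraries on days 1, 2, 3 and 5 was -0.0123, -0.0489, -0.0245 and -0.0176 (every tested gene), and -0.0435, -0.118, 0.101 and 0.177 in the 6273 more abundant genes, which include MEOX1 and SIX4. With a replicate block the late calls stayed at 2 (log2 fold change 0.436 for MEOX1 and 0.348 for SIX4 with the block within days), and no other call of a factor changed. Values that changed sign were all uncalled. On TPM they were -0.0746 and -0.0794 for SIX4 on day 1, 0.255 and 0.345 for PAX2 on day 2, and -0.0266 and -0.0283 for SIX4 in LacZ day 5 minus day 1. Without a filter they were -0.00153 for MEOX1 on day 1 and -0.0153 for PAX2 in LacZ day 5 minus day 1. With single libraries left out, SIX4 ranged over -0.015 to 0.0636 on day 1, -0.00959 to 0.20 on day 2 and -0.0393 to 0.0733 in LacZ day 5 minus day 1. PAX2 then ranged over -0.115 to 0.56 on day 1, -0.41 to 0.10 on day 2, -0.20 to 0.11 on day 5, -0.12 to 0.23 over days 1 and 2, -0.29 to 0.39 in LacZ day 5 minus day 1, and -0.078 to 0.15 in BRD9 KO day 3 minus day 1. DESeq2 gave no adjusted p for SIX4 on day 1 or for PAX2 in 6 comparisons, which are left out. Over all genes the late comparison called 3230 with edgeR, 1979 with DESeq2 and 1534 with limma on log2(TPM + 1). PAX2 had 34 to 69 counts per library, and its libraries within a group differed by up to 0.65 on the log2 scale.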

Other observations

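Genes listed for other kidney cells were also examined. Among 12 podocyte genes, 7 were expressed, which is 58.3%. This is close to the 60.7% of all protein-coding genes and does not set the podocyte genes apart. The slit diaphragm gene NPHS1 averaged 0.383 TPM, and PTPRO, CLIC5 and TCF21 had no count. Over days 3 and 5, when 10.6% of all tested genes were called higher and 10.9% lower, 3 of the 7 tested podocyte genes were higher (PODXL 0.55, CD2AP 0.22, NES 0.14) and 2 were lower (ACTN4 -0.29, KIRREL -0.28), and LMX1B, a podocyte homeobox gene, stood at 215 CPM in BRD9 KO and 214 CPM in LacZ cells. Of 8 tested stromal genes, 1 was higher (FOXC1, a forkhead factor, 0.18) and 6 were lower, among them COL1A1 (-0.57), PDGFRB (-0.25), COL1A2 (-0.23) and TAGLN (-0.18). Of the 19 stromal genes listed, 7 were expressed (36.8%), among them TAGLN (824 TPM) and COL1A2 (228 TPM). The stromal progenitor gene FOXD1 averaged 0.696 TPM and was not called, and TCF21 had no count.

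Of 5 tested tubule and duct genes, 0 were called higher and 2 lower, beside 10.6% and 10.9% of all tested genes. These calls over days 3 and 5 were SCNN1A (-0.34) and SLC12A3 (-2.85). SLC12A3 did not reach the limit for an expressed gene, with 0.143 CPM in BRD9 KO and 1.08 CPM in LacZ cells. Its BRD9 KO mean lies under the CPM of 3 counts in those libraries (0.181 to 0.275), so neither its call nor its size is firm. CALB1 (0.67), SLC5A2 (-0.68) and ATP6V1B1 (-0.37) were not called. Unadjusted, 4 of the 5 had p under 0.05, and the share of all tested genes at this limit was not computed. UMOD had no count and LRP2 had 1. Of 5 tested epithelial genes, KRT18 (0.46), KRT8 (0.44) and OCLN (0.22) were called higher and 0 lower, beside 10.6% and 10.9% of all genes. KRT7 (-1.12) and CLDN4 (-0.20) had lower values in BRD9 KO cells and were not called (adjusted p = 0.0844 and 0.516, edgeR). Here 4 of the 5 had an unadjusted p under 0.05, again without a share over all genes. Of the 12 epithelial genes listed, 5 were expressed, which is 41.7%. KRT8 and KRT18 averaged 3893 and 3502 TPM, OCLN 29.4 TPM, CLDN4 3.03 TPM and KRT7 1.59 TPM. CDH1 and EPCAM were not among the expressed genes and averaged 0.186 and 0.243 TPM. None of 9 endothelial genes was expressed, and of 10 blood genes HBA1 (2.77 TPM) and CD79A (0.858 TPM) met the limit for an expressed gene. Of the 3 tested genes used to check the labels, BRD9 (-1.34), SMARCA4 (-0.11) and VIM (-0.07) were lower in BRD9 KO cells. All calls are at an adjusted p under 0.05 with edgeR.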
